A study of Mus musculus with 6 samples.

Results

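Soluble adenylyl cyclase and protein kinase A form the cAMP pathway that starts sperm motility and capacitation. The genes described are 10 named members of that pathway: Adcy10 (soluble adenylyl cyclase), Adcy3 (a membrane cyclase), the catalytic subunit genes Prkaca and Prkacb, the regulatory subunit genes Prkar1a, Prkar1b, Prkar2a and Prkar2b, and the phosphodiesterase genes Pde4d and Pde1c. They were chosen by name, and an exact match of the gene symbol found 9 of the 10 among 22770 gene rows; Adcy3 is not analysed here.

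Polyadenylated RNA was measured by Smart-seq2, a full-length cDNA method that amplifies by PCR without molecular identifiers, in mouse round spermatids sorted by flow cytometry at postnatal day 28, mainly at step 8. The labels put 3 libraries in the genotype Eif5a SKO, without expanding SKO, and 3 in wild type. Strain, allele and any Cre driver are not given in the sources used, and no other treatment is named. Nothing says that the libraries of a group came from separate animals, so p-values measure the spread between these libraries, which may be technical.

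Soluble adenylyl cyclase makes cAMP when bicarbonate and calcium rise, and in sperm it is the main source of that messenger. Protein kinase A is held inactive as a complex of catalytic and regulatory subunits. cAMP binds the regulatory subunits, the catalytic subunits are freed, and phosphodiesterases end the signal by breaking cAMP down. Type I regulatory subunits block the kinase with a pseudosubstrate stretch, whereas type II subunits carry a site that the kinase itself phosphorylates and are held at sites in the cell by A-kinase anchoring proteins.

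Library totals ran from 52055193 to 60970931 counts, with 21177 to 22006 genes detected. Eif5a, the targeted gene, stood at 6.88, 6.27 and 5.35 CPM in the SKO libraries and at 701, 616 and 662 CPM in wild type, so it was low in every library labelled SKO (log2 fold change -6.74 ± 0.17, edgeR adjusted p = 9.54e-08). CPM are counts scaled to the effective library size, and fold changes are given as log2 of SKO over wild type ± SE. All 10 round spermatid markers on the fixed list were detected. They summed to 4733 to 5060 CPM in the wild-type libraries and 5562 to 6510 CPM in the SKO libraries. Of them, Acrv1 and Spaca1 were called higher (log2 fold change 0.58 and 0.93), Catsper1 was called lower (-0.57) and the others were not called. Markers of elongating spermatids summed to 4749 to 5258 CPM in wild type and 6782 to 7569 CPM in SKO, and those of spermatocytes to 1595 to 1662 and 1221 to 1605 CPM. The spermatocyte sum rests mostly on Ccna1, Spag6 and Nme8 (means of 448, 678 and 258 CPM in wild type). It hides changes in both directions, with Sycp3 and Dmc1 called higher (log2 fold change 1.82 and 1.56) and Aurkc and Mei1 lower (-2.25 and -2.06). Of the somatic lists, Sertoli markers, 7 of 12 with a row and 6 of these called higher in SKO, summed to 2.49 to 10.6 CPM in wild type against 45.9 to 174 CPM in SKO. Leydig markers, 7 of 8 with a row and 4 called higher, summed to 1.5 to 23.0 and 11.3 to 55.6 CPM, ranges that overlap. Peritubular markers, 4 of 6 with a row and 2 called higher, summed to 6.24 to 16.0 and 32.5 to 71.3 CPM. Macrophage markers, 5 of 7 with a row, summed to 3.99 to 4.81 and 1.94 to 7.35 CPM. Of these, Lyz2 was called higher and Adgre1 lower (log2 fold change 2.06 and -2.77). Cst12 and Rhox8 of the Sertoli list were at 0 counts in wild-type replicate 1. Of the Leydig list, Insl3 was at 0 counts in wild-type replicates 1 and 2, and Cyp11a1, which was not called, in wild-type replicate 1. Hsd3b1 and Lhcgr, not called either, were highest of the 6 libraries in wild-type replicate 3 (13.6 and 1.51 CPM).

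Of the 9 members, all of which passed the filter on low counts, 3 fell in SKO spermatids and 1 rose by edgeR's quasi-likelihood test at an adjusted p under 0.05. Prkaca, Prkar2a and Prkar1b fell, and Prkacb rose. Over all 19776 genes tested, 20.9% were called lower and 21.2% higher, beside 33.3% and 11.1% of the members. The median log2 fold change was -0.37 for the members and 0.01 for all genes tested, and 7 of the 9 members had groups that did not overlap, against 55.6% of all genes. With library totals as the only scaling, the median over all genes was -0.23, and 28.7% of all genes were called lower and 14.3% higher. Under that scaling edgeR called 7 members lower and 0 higher (0 higher at an unadjusted p under 0.05 too; DESeq2 with its own factors called 1), so directions are relative to the median gene. All 9 members lie on autosomes, where 22% of the genes tested were called lower and 18.7% higher.

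**Figure D1:**
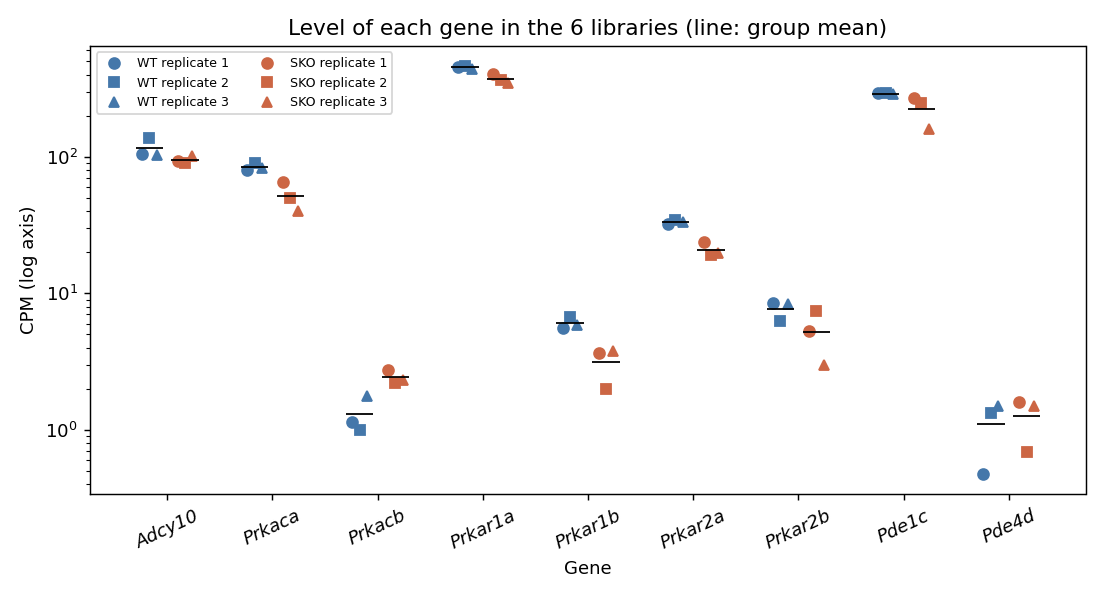
Level of each of the 9 genes in each library, in CPM on a log axis, with wild-type libraries in blue, SKO libraries in orange and a line at each group mean (n = 3). The SKO values of Prkaca, Prkar1b and Prkar2a lie below all wild-type values, those of Prkacb lie above them, and the groups overlap for Prkar2b and Pde4d.

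Adcy10, which encodes the soluble cyclase itself, lies on the plus strand at chr1:165485183-165576774 (GRCm38). Its level was 105, 137 and 102 CPM in the wild-type libraries and 92.9, 90.1 and 101 CPM in the SKO libraries. Every SKO library was below every wild-type library, but SKO replicate 3 and wild-type replicate 3 were close together. The log2 fold change of -0.28 ± 0.15 did not pass the test (edgeR adjusted p = 0.156), and without wild-type replicate 2, the highest library, it was -0.14. Under library totals alone it was -0.52 and passed (edgeR adjusted p = 0.0245).

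RefSeq (GRCm38.p6) lists 1 start site for Adcy10 and 2 for Prkaca, the gene of the main catalytic subunit of testis. The 100 bases before each of these starts are shown because they are the proximal promoters of the cyclase and of the kinase it turns on. Capitals mark the short form TGACG of the cAMP response element, the DNA motif bound by CREB and CREM proteins, on either strand.
Adcy10, chr1:165485083-165485182, plus strand: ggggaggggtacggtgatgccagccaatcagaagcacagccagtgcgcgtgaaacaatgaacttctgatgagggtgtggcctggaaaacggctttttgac
Prkaca, first start, chr8:83972878-83972977, plus strand: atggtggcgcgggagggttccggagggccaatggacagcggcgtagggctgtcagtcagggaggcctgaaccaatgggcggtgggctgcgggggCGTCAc
Prkaca, second start, chr8:83976783-83976882, plus strand: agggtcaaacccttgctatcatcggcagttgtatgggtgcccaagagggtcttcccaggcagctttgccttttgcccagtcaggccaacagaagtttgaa
The short form stands close to the first Prkaca start, and these letters are in neither of the other stretches. The first Prkaca stretch is 70.0% G and C, the second 53.0% and the Adcy10 stretch 55.0%.

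Prkaca, at chr8:83972993-83996443 on the plus strand, encodes catalytic subunit alpha, which has a sperm form made from its own first exon; counts per gene do not separate the forms. It stood at 80.3, 90.6 and 82.2 CPM in the wild-type libraries and at 65.1, 49.6 and 39.9 CPM in the SKO libraries. All 3 SKO libraries were below all wild-type libraries, with SKO replicate 3 the lowest. The gene fell by 0.71 ± 0.18 on the log2 scale, to 61.1% of wild type (edgeR adjusted p = 0.0116). The call was lost without wild-type replicate 2 (log2 fold change -0.66, edgeR adjusted p = 0.0508) and when length and GC content of transcripts were corrected for, which lowered the change to -0.35 (edgeR adjusted p = 0.111).

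Prkacb, at chr3:146729574-146812990 on the minus strand, encodes catalytic subunit beta, which is widespread in somatic tissue. It was a low gene here, with 67, 59 and 110 counts in wild type (1.14, 1.01 and 1.76 CPM) and 133, 119 and 118 counts in SKO (2.75, 2.21 and 2.34 CPM). The groups did not overlap, and the rise of 0.90 ± 0.31 passed the test (edgeR adjusted p = 0.0393). The summed Sertoli and peritubular markers given above, at 45.9 to 174 and 32.5 to 71.3 CPM in SKO, were also above wild type in every SKO library, and their part in the Prkacb value was not tested. Leaving out any single library other than wild-type replicate 3 ended the call (log2 fold change 0.74 to 0.94, edgeR adjusted p from 0.0506 to 0.131), as did library totals alone (0.66, edgeR adjusted p = 0.111).

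Prkar1a encodes the type I alpha regulatory subunit, the form that keeps free catalytic subunits in check in many tissues, and lies at chr11:109649405-109669656 on the plus strand. It stood at 457, 459 and 436 CPM in the wild-type libraries and at 404, 364 and 347 CPM in the SKO libraries. The groups did not overlap, and the wild-type libraries lay close together. The log2 fold change of -0.28 ± 0.12, 82.5% of wild type, did not pass the test (edgeR adjusted p = 0.0854). It passed without SKO replicate 3 (-0.27, edgeR adjusted p = 0.0247), without SKO replicate 1 (-0.36, edgeR adjusted p = 0.0491) and under library totals alone (-0.52, edgeR adjusted p = 0.00489).

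Prkar1a was also the one member with a full cAMP response element, TGACGTCA, in a promoter window. The windows run from 250 bases before to 50 bases after a RefSeq start, 300 bases in all, and both strands were searched. RefSeq lists 6 starts for this gene, and the same element falls in the windows of 2 neighbouring starts. It is shown with its flanks, with the element in capitals:
Prkar1a, chr11:109650889-109650918, plus strand: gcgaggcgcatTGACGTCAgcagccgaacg
Of all 32851 windows of this length, 1.79% hold the full element. The short form TGACG, which the full element contains on both strands, falls in 20.8% of all windows and in 7 of the 24 windows of the 9 members (29.2%), which belong to Prkaca, Prkacb, Prkar1a, Prkar1b and Prkar2a. The 3 members that fell are among these 5, as are Prkacb, which rose, and Prkar1a, which was not called. The number of windows differs from 1 to 6 between members, and a match of letters does not show a site in use.

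Prkar1b, the type I beta subunit gene, best known from brain, lies at chr5:139017306-139150001 on the minus strand. Its level was 5.54, 6.73 and 5.87 CPM in the wild-type libraries and 3.63, 2.00 and 3.80 CPM in the SKO libraries. All SKO values were below all wild-type values, and SKO replicate 2 was the lowest. The gene fell by 0.94 ± 0.27, the largest fall among the 9 members in this fit (edgeR adjusted p = 0.0184). The call was lost without wild-type replicate 2 (-0.86, edgeR adjusted p = 0.0711) and after the length and GC correction, which lowered the change to -0.51 (edgeR adjusted p = 0.0996). The long non-coding gene Gm15672 overlaps its start on the same strand, and reads there could belong to either gene.

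Prkar2a, the type II alpha subunit gene, at chr9:108689314-108750436 on the plus strand, encodes the form that sits on the fibrous sheath and midpiece of the sperm tail through anchoring proteins. It stood at 32.3, 34.4 and 33.4 CPM in the wild-type libraries and at 23.6, 19.1 and 19.8 CPM in the SKO libraries. Both groups were tight and well apart. The gene fell by 0.68 ± 0.15, to 62.3% of wild type (edgeR adjusted p = 0.00488). This was the 1 member called under each of the 14 other settings tried, with a smallest change of -0.47 after the length and GC correction (edgeR adjusted p = 0.017).

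Prkar2b, the type II beta subunit gene, at chr12:31958476-32061296 on the minus strand, is best known from brain and fat. It had 8.48, 6.27 and 8.30 CPM in the wild-type libraries and 5.27, 7.38 and 3.01 CPM in the SKO libraries. The groups overlapped, since SKO replicate 2 was above wild-type replicate 2. The log2 fold change was -0.56 ± 0.30 (edgeR adjusted p = 0.167), and without SKO replicate 2 it was -0.92 and passed (edgeR adjusted p = 0.038). Without SKO replicate 3, the lowest library, it was -0.31 (edgeR adjusted p = 0.263).

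Pde1c, at chr6:56069804-56569103 on the minus strand, encodes a phosphodiesterase that calcium and calmodulin switch on and that takes both cAMP and cGMP. It stood at 291, 292 and 286 CPM in the wild-type libraries and at 269, 246 and 159 CPM in the SKO libraries. The wild-type libraries hardly differed, whereas SKO replicate 3 was far below the other 2 SKO libraries. The log2 fold change was -0.37 ± 0.18 (edgeR adjusted p = 0.137), and without SKO replicate 3 it was -0.20.

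Pde4d, at chr13:108449948-109953461 on the plus strand, encodes a phosphodiesterase specific for cAMP. Its counts were 28, 78 and 93 in wild type and 78, 37 and 76 in SKO, or 0.477 to 1.49 CPM and 0.686 to 1.61 CPM. The groups overlapped almost fully, and the log2 fold change of 0.20 ± 0.50 (edgeR adjusted p = 0.773) changed sign without wild-type replicate 1 (-0.16), without SKO replicate 1 (-0.028) and under library totals alone (-0.025). At this depth and spread a change of this size was not detectable.

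Levels of different genes can be set side by side only per length, here as CPM per kb of the transcript with the longest coding sequence. In wild type Prkar1a was highest at 128 ± 3.68 CPM per kb (SD, n = 3), followed by Pde1c at 92.1 ± 1.01, Prkaca at 37.1 ± 2.39, Adcy10 at 22.1 ± 3.73 and Prkar2a at 6.73 ± 0.21 CPM per kb. The low members were Prkar1b at 2.29 ± 0.23, Prkar2b at 2.27 ± 0.36, Pde4d at 0.448 ± 0.222 and Prkacb at 0.326 ± 0.101 CPM per kb. Libraries of Prkar1b and Prkar2b overlapped, as did those of Pde4d and Prkacb, so neither pair can be ordered. The order also rests on the length used. Coding sequence makes up 1206 of 4965 bases for Prkar2a, 1053 of 2276 for Prkaca and 4842 of 5210 for Adcy10. The order was not recomputed per kb of coding sequence, so that of Prkar2a and Adcy10 is not firm. In SKO Prkaca stood at 22.7 ± 5.59 and Adcy10 at 18.2 ± 1.05 CPM per kb, and their libraries overlapped too. Within a library the ratio of Adcy10 to Prkaca was 0.573, 0.663 and 0.544 in wild type and 0.623, 0.794 and 1.10 in SKO. Per kb of whole transcript, Adcy10 was thus above Prkaca in SKO replicate 3 alone. Per kb of coding sequence the ratio would be lower in every library, and it was not computed. The groups of this ratio overlapped, and the exact permutation test gave p = 0.2 (0.218 after Benjamini-Hochberg adjustment over the 12 measures within libraries).

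The make-up of kinase RNA was compared within each library, where scaling by depth cancels. A dependence on GC content that differs between libraries does not cancel, and these measures were not recomputed after the length and GC correction. That correction moved the log2 fold change of Prkaca from -0.71 to -0.35 and that of Prkar1a from -0.28 to -0.16. Summed over the 4 regulatory and the 2 catalytic genes per kb, regulatory RNA exceeded catalytic RNA by a ratio of 3.97, 3.55 and 3.71 in wild type and 4.18, 4.95 and 5.80 in SKO. All SKO ratios were above all wild-type ratios, with SKO replicate 1 close to wild-type replicate 1. The exact permutation test over the 6 libraries, two-sided, gave p = 0.1, the smallest it can give with 3 libraries a group, and 0.12 after Benjamini-Hochberg adjustment over 12 such measures. Prkar1a made up 92.1%, 92.0% and 91.6% of regulatory RNA in wild type and 93.7%, 93.8% and 94.0% in SKO. Prkacb made up 0.801%, 0.628% and 1.20% of catalytic RNA in wild type and 2.34%, 2.47% and 3.22% in SKO, so Prkaca held nearly all of it in each library. Per kb of coding sequence these Prkacb shares were over 1.5 times as large, at 0.97% to 1.86% in wild type and 3.59% to 4.91% in SKO. Both shares were higher in SKO in every library, again with an exact permutation p = 0.1. The regulatory to catalytic ratio was also larger per kb of coding sequence, at 5.082 to 5.674 in wild type and 5.925 to 8.177 in SKO. RNA was measured here, not protein, and fewer cells of a type or less RNA per cell cannot be told apart in such pools.

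**Figure D2:**
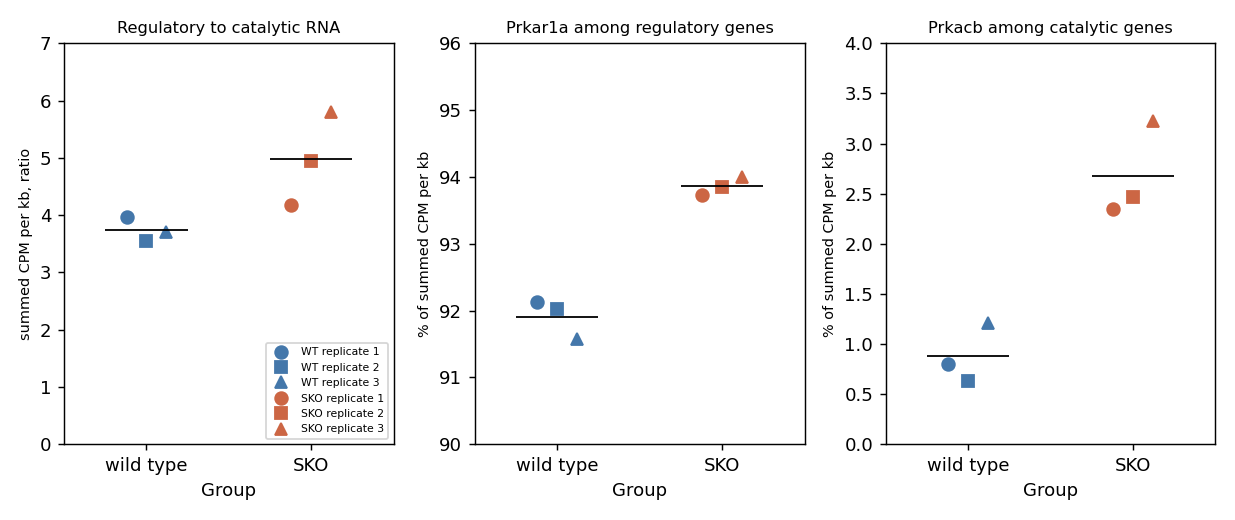
Each point is a library and each line a group mean (n = 3), from CPM per kb of transcript: the ratio of regulatory to catalytic RNA, the share of Prkar1a in regulatory RNA (axis from 90%) and the share of Prkacb in catalytic RNA. SKO lies above wild type in all 3 panels, from 4.18 to 5.80 against 3.55 to 3.97 in the first.

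The rest of the pathway was read from a list of 57 other cAMP genes in 7 groups, of which 43 had a row and all 43 were tested. In SKO 10 rose and 6 fell, or 23.3% and 14% against 21.2% and 20.9% of all genes tested, and the median was -0.05. The count of genes that rose was 6 without wild-type replicate 1, and library totals alone gave 5 higher and 13 lower.

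The largest change among these 43 genes was in the other phosphodiesterases that take cAMP, where 3 of 11 fell and none rose (1 higher at an unadjusted p under 0.05 in edgeR, 0 by DESeq2 and 0 by limma-voom). The share that fell, 27.3%, is near the 20.9% of all genes tested, of which 21.2% rose. Pde4b, a sister gene of Pde4d, had 17.9, 15.7 and 15 CPM in the wild-type libraries and 0.847, 1.35 and 0.594 CPM in the SKO libraries. It fell by 4.11 ± 0.29 (edgeR adjusted p = 1.98e-05). Pde4a, of the same subfamily, had 107, 117 and 99.8 CPM in the wild-type libraries and 48.9, 32.1 and 32.7 CPM in SKO, a fall of 1.51 ± 0.19 (edgeR adjusted p = 0.00026). Pde8b, a low gene, fell by 1.39 ± 0.43, a call lost after the length and GC correction (-1.02, edgeR adjusted p = 0.0821) and without SKO replicate 1 or 2 or wild-type replicate 1 or 3 (-1.37 to -1.14). The other 8 were not called.

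Among the kinase inhibitors and the related kinase 3 of 4 rose, beside 21.2% of all genes tested and 18.7% of autosomal genes. Of the 4185 genes called higher among 19776 tested, 3465 were among the 18538 on autosomes. Genes not placed on an autosome were thus called higher more often, and X-linked Prkx belongs to them. Pkig, which encodes a small inhibitor of the free catalytic subunit, went from 290, 263 and 317 CPM in wild type to 424, 420 and 413 CPM in SKO, a rise of 0.53 ± 0.12 (edgeR adjusted p = 0.00641). Pkia, another inhibitor of this kind, was low and rose by 0.86 ± 0.30 (edgeR adjusted p = 0.0436), and Prkx, an X-linked kinase close to the catalytic subunits, rose by 0.90 ± 0.25 (edgeR adjusted p = 0.016). Both were low, as Prkacb was, with means of 1.41 and 1.98 CPM in wild type, and the part of the Sertoli and peritubular markers (45.9 to 174 and 32.5 to 71.3 CPM in SKO, against 2.49 to 10.6 and 6.24 to 16.0 CPM) was not tested for them either. The Pkia call ended after the length and GC correction (0.68, edgeR adjusted p = 0.0712), and all 3 ended under library totals alone (0.29, 0.62 and 0.65). The Pkia call also ended without SKO replicate 1 or 2 or wild-type replicate 1 or 2 (0.62 to 0.92), and the Prkx call without SKO replicate 2 or any 1 wild-type library (0.75 to 0.91).

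All 4 genes for proteins with a docking domain like that of the type II regulatory subunit, which lets them bind anchoring proteins of the fibrous sheath, rose, beside 21.2% of all genes tested. The elongating spermatid markers, 6 of 10 of which were called higher and 1 lower, also summed to more in every SKO library (6782 to 7569 CPM, against 4749 to 5258 CPM), and their part in this rise was not tested. Spa17, which overlaps the gene Siae on the other strand, went from 609, 511 and 579 CPM to 1131, 1247 and 1674 CPM, a rise of 1.25 ± 0.16 (edgeR adjusted p = 0.000363). Ropn1 and Ropn1l rose by 0.88 ± 0.13 and 0.63 ± 0.14, and Cabyr, a calcium-binding member, by 0.62 ± 0.20. The Cabyr groups overlapped, because SKO replicate 3, at 1261 CPM, was below wild-type replicate 3, at 1287 CPM, and its call ended under library totals alone (0.37, edgeR adjusted p = 0.109) and without any 1 library other than SKO replicate 3 (0.43 to 0.68). The type II alpha subunit gene Prkar2a, whose product binds the same anchoring proteins, fell in the same libraries.

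Of 13 anchoring protein genes 3 rose and 1 fell, or 23.1% and 7.69% beside 21.2% and 20.9% of all genes tested, so the share that rose is near the background. Akap12, a large scaffold for the kinase, had 251, 236 and 228 CPM in the wild-type libraries and 427, 443 and 631 CPM in SKO, a rise of 1.07 ± 0.16 (edgeR adjusted p = 0.000844). X-linked Akap14, an anchoring gene of cilia and sperm tails, rose by 1.20 ± 0.20 and Akap9, of the centrosome and Golgi, by 0.82 ± 0.23. Akap9 overlaps the gene Cyp51 on the other strand. Akap14, like Prkx, is among the genes off the autosomes, which were called higher more often than autosomal genes. Akap10, whose product binds regulatory subunits of both types, fell by 0.74 ± 0.14, from 112 to 123 CPM in wild type to 59.8 to 78.4 CPM in SKO (edgeR adjusted p = 0.00279). The Akap9 call ended under library totals alone (0.59, edgeR adjusted p = 0.0804) and without wild-type replicate 1 (0.82) or 3 (0.70).

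Other proteins that bind cAMP include the exchange factors of Rap GTPases. Rapgef4 fell by 2.31 ± 0.47, from 2.37, 3.41 and 2.44 CPM to 0.682, 0.186 and 0.792 CPM (edgeR adjusted p = 0.00383), and Rapgef3 by 0.57 ± 0.19 (edgeR adjusted p = 0.0377). The Rapgef3 change was -0.03 after the length and GC correction, and its call was also lost with upper quartile factors (-0.53, edgeR adjusted p = 0.056) and without any 1 library other than SKO replicate 3 (-0.61 to -0.51). Of the other membrane cyclases only Adcy2 and Adcy6 had a row, with means of 0.75 and 1.12 CPM in wild type, and neither was called. In the group of G proteins and the sperm exchanger bound to soluble cyclase, 5 genes were tested and changed by -0.43 to 0.01 with no call in either direction (0 at an unadjusted p under 0.05 in edgeR, 0 by DESeq2 and 0 by limma-voom).

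**Figure D3:**
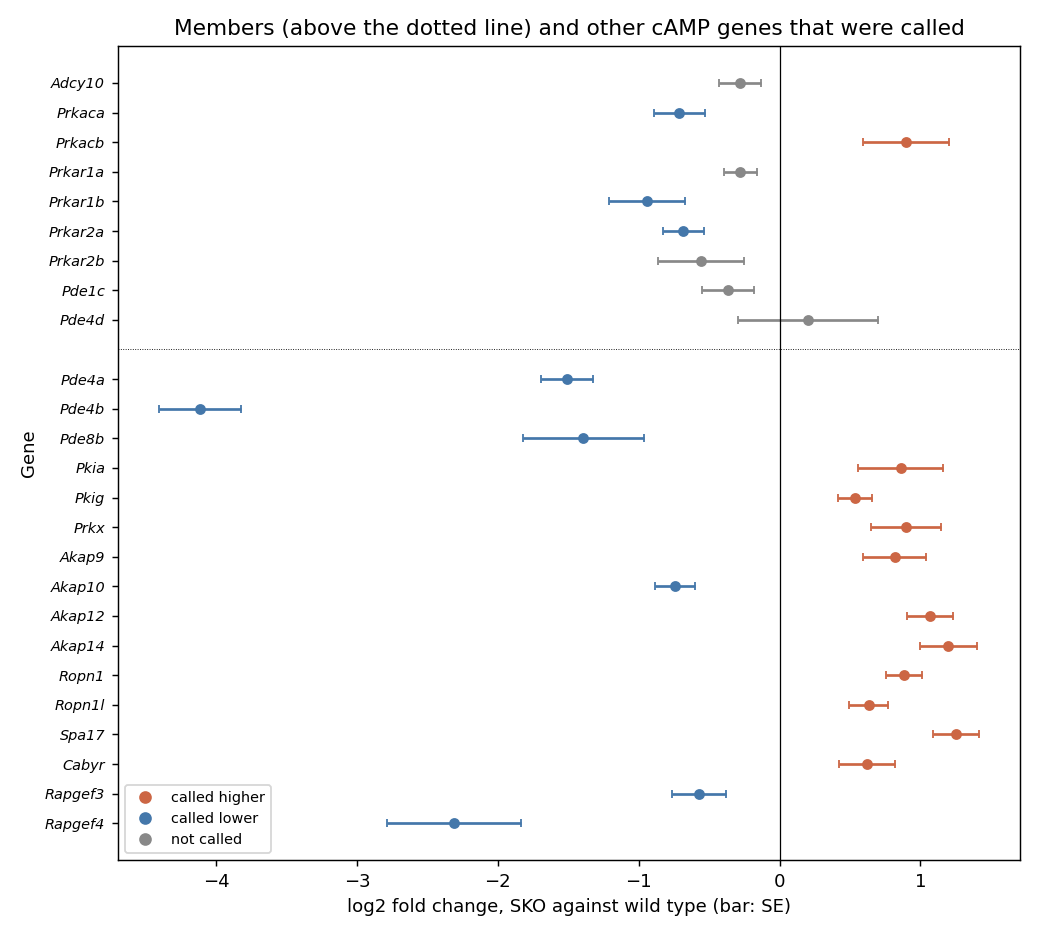
Log2 fold change of SKO against wild type with its SE from edgeR (n = 3 a group) for the 9 members above the dotted line and for the 16 other cAMP genes that were called. Pde4b, at -4.11, lies farthest from 0, and the members lie between -0.94 and 0.90.

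The genes whose levels followed Adcy10 most closely over the 6 libraries, among 7699 named genes with a mean of at least 5 CPM, were Tmub2 (Pearson r = 0.997), Aox3 (r = 0.986) and Larp1 (r = 0.985), from log2 CPM. All 3 shared with Adcy10 a highest value in wild-type replicate 2, and the 6 points also share the split into 2 genotypes. Their log2 fold changes were -0.40 ± 0.21, -0.69 ± 0.22 and -0.34 ± 0.17, of which only that of Aox3 passed the test (edgeR adjusted p = 0.032), and not without wild-type replicate 2 (-0.42, edgeR adjusted p = 0.136) or SKO replicate 1 or 2 (-0.67 and -0.64), nor after the length and GC correction (-0.48, edgeR adjusted p = 0.0812).

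**Figure D4:**
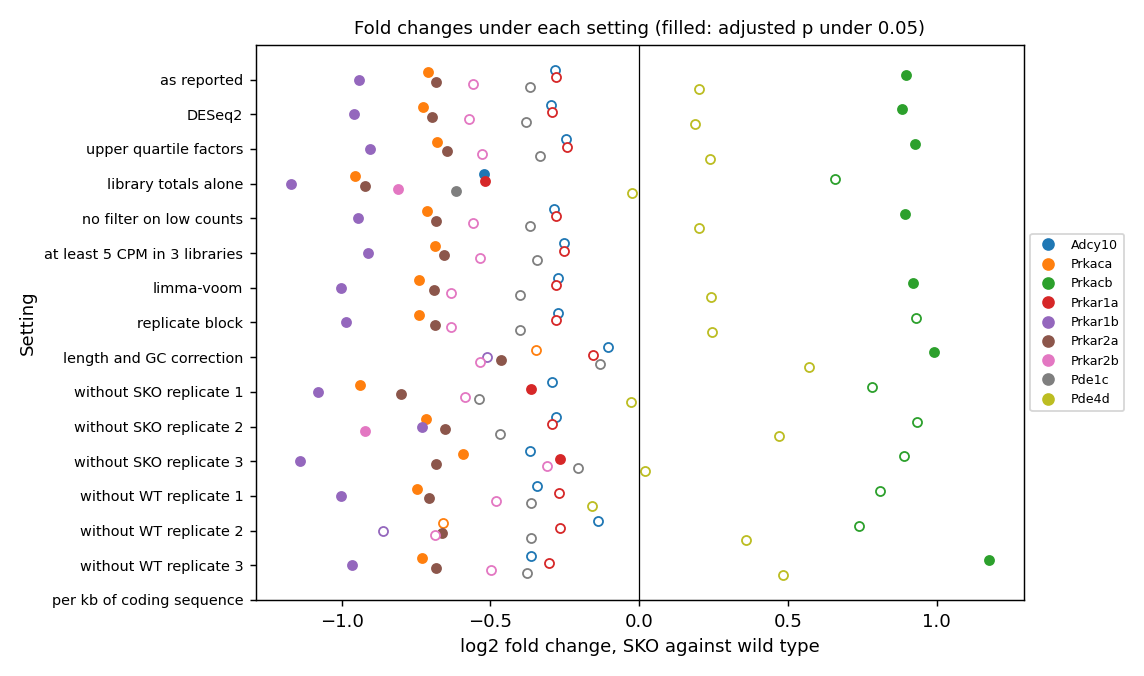
Log2 fold change of each member as reported and under 14 other settings, with filled points where the adjusted p was under 0.05. Prkar2a, in brown, is filled in every row, and the length and GC correction brings Prkaca and Prkar1b to -0.35 and -0.51 with open points.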

How the data were processed

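The authors deposited raw counts per gene in 1 column for each of the 6 libraries, and each column was matched to the label with its genotype and number. Per the submitters' processing notes, reads were handled with FastQC, Trim Galore (0.6.4), HISAT2 (2.0.5) and Subread's featureCounts (1.5.0-p3) on the build GRCm38 (mm10). How strand and multi-mapping reads were treated, and with which annotation, is not given in the sources used here, so overlapping and antisense genes cannot be separated.

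The whole table was fitted in edgeR 4.0.16 (R 4.3.3) with filterByExpr (minimum counts 10 and 15), TMM factors, the group as the only term and a two-sided quasi-likelihood test, adjusted by Benjamini-Hochberg over 19776 genes. Positions, overlaps, transcript length and GC content came from GENCODE M21, which gave a length for 96.9% of gene rows, and promoters from RefSeq (GRCm38.p6), which matched all 9 members. The test was checked on simulated data, where 200 genes were changed and 19392 were tested. It recovered 39.8% of 2-fold and 85.6% of 4-fold changes. Of its calls there, 4.69% were of genes left unchanged. In the real data far more genes were called (20.9% lower and 21.2% higher), so these rates may not hold for them. A missing call does not show that a gene was unchanged. Alternatives were DESeq2 1.42.0, limma-voom (limma 3.58.1), other scalings and filters, a loess correction for length and GC content, a replicate block and each library left out. Coding length, and each library left out, were added for the make-up of kinase RNA after seeing the data. The members and lists were chosen with earlier results of these data known. All members are described, and from the other cAMP genes those that were called, besides the 3 genes most like Adcy10. No pair of replicates agreed within sampling noise (chi-square over its degrees of freedom 14.2 to 141), so each was kept. PCR copies are not independent molecules, so depth limits cover counting error only.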

Additional observations from a re-analysis of the deposited data

How the results depend on the processing

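Library totals alone gave 0 members higher and 7 lower, and 5 and 13 of the other cAMP genes; its factors leave the median gene below 0. The filter of 5 CPM in 3 libraries tested 10279 genes and 7 members; Prkacb was not among them, which leaves 0 members higher. All genes called lower then went from 4127 to 2742, or from 20.9% to 26.7% of those tested. The length and GC correction left 1 member lower. With each library left out in turn, 0 to 1 members were higher and 1 to 4 lower, and 6 to 10 other cAMP genes were higher and 4 to 9 lower; only 1 member was lower without wild-type replicate 2. The SKO mean over the wild-type mean of the regulatory to catalytic ratio ran from 1.22 to 1.44 over these, that of the Prkar1a share from 1.019 to 1.022 and that of the Prkacb share from 2.67 to 3.75. Per kb of coding sequence the Prkar1a value was 1.023, from 1.021. Pde4d turned to -0.025 under library totals, -0.028 without SKO replicate 1 and -0.16 without wild-type replicate 1, the lowest of its values from -0.16 to 0.48 with a library left out.

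With the replicate number as a block, 0 members were higher and 3 lower, and the calls of Prkacb, Pkia, Cabyr, Rapgef3 and Aox3 were lost (edgeR adjusted p from 0.0561 to 0.0716). Same-numbered libraries did not deviate together (correlations -0.022, -0.051 and -0.065), and no library correlated best with its own number, so the numbers are not taken as pairs. The cause of these shifts was not tested beyond the settings themselves.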

Other observations

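SKO replicate 3 stood apart from the other SKO libraries in several cAMP genes of the sperm tail that were not called, named here after their values were seen. Akap4, the main anchoring protein of the fibrous sheath, had 908 and 849 CPM in SKO replicates 1 and 2, 439 CPM in SKO replicate 3 and 733 to 793 CPM in wild type. Akap3, its partner, had 302, 234 and 143 CPM in SKO and 236 to 259 CPM in wild type. Slc9c1, the sperm exchanger gene, had 388, 422 and 157 CPM in SKO and 312 to 378 CPM in wild type. Of the called genes with a docking domain, Spa17, Ropn1 and Ropn1l were instead highest of the 6 libraries in SKO replicate 3 (1674, 1475 and 3672 CPM). Cabyr was lowest of the 3 SKO libraries there (1261 CPM). Over all genes SKO replicate 3 also differed from SKO replicates 1 and 2 (chi-square over its degrees of freedom 141 and 136) more than these did from each other (33.9). Among the members the same library was the lowest of the 6 for Prkaca, Prkar1a, Prkar2b and Pde1c, but the highest of the 3 SKO libraries for Adcy10, at 101 CPM, and for Prkar1b, at 3.80 CPM.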
